A study of Homo sapiens with 11 samples.

Results

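The heat shock chaperones described here are 10 genes, HSPA1A, HSPA1B, HSPA8, HSP90AA1, DNAJB1, HSPH1, HSPB1, HSPD1, HSPE1 and BAG3, chosen by name among the 57773 genes of the expression table of HCC78 cells. All 10 were found, each under 1 entry, and all 10 had a mean above 1 FPKM (a read density scaled by transcript length and library size), the minimum for a test. HCC78 is a lung adenocarcinoma cell line that carries an SLC34A2-ROS1 fusion and, in its own genome, both a wild-type and an S34F copy of U2AF1, the small subunit of the U2AF splicing factor that recognizes the end of introns. Subclones of this line were made with lentiviral pTRIPz vectors from which doxycycline switches on U2AF1 with FLAG and HA tags, either wild-type (WT) or S34F, and the study asked what the mutant does to the transcriptome. RNA-Seq of 9 libraries was used, 2 replicates each of the WT line treated with doxycycline (WT dox+) or untreated (WT dox-), of the treated S34F line (S34F dox+) and of the parental line, beside a lone library, replicate 2, of the untreated S34F line (S34F dox-). The sample labels give the parental line as untreated, whereas a supplementary table of the study heads its columns as treated, so its doxycycline status is uncertain. All groups share the endogenous S34F allele, and the labels put S34F at 62% and 65% of U2AF1 mRNA in S34F dox+, at 12% and 14% in WT dox+ and at 28% to 33% in the other 5 libraries. Each line is a stable subclone, so construct and clone cannot be told apart, and nothing states that replicates came from separate cultures, so p-values measure the spread between these libraries.

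Chaperones of the heat shock response hold unfolded proteins and return them to a folded state. HSP70 proteins (HSPA8, HSPA1A, HSPA1B) bind exposed hydrophobic stretches in an ATP-driven cycle that J-domain proteins such as DNAJB1 start and that nucleotide exchange factors such as HSPH1 and BAG3 reset. HSP90 completes the folding of kinases and receptors, HSPB1 is a small heat shock protein that holds clients without ATP, and HSPD1 with its lid HSPE1 forms the folding chamber of mitochondria. Under proteotoxic stress, heat shock factor 1 (HSF1) binds inverted repeats of the pentamer nGAAn in the promoters of these genes and raises their transcription. Tumor cells, lung adenocarcinoma among them, often hold these chaperones at high levels.

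To show how the members share this regulatory sequence, RefSeq promoter windows (GRCh38.p14, 250 bases before to 50 after each annotated start) were searched for facing pentamers, GAANNTTC and TTCNNGAA. Each of these motifs reads the same on both strands. All 10 members matched, with 14 windows in all, and 7 members held at least 1 of these motifs, namely HSPA1A, HSPA1B, HSPA8, HSP90AA1, DNAJB1, HSPB1 and HSPD1. Of all 35116 windows, 6.77% held GAANNTTC, 7.74% held TTCNNGAA and 13.5% held either, as did 8 of the 14 member windows. The longer element of 3 pentamers, GAANNTTCNNGAA or its reverse complement TTCNNGAANNTTC, contains both of the short motifs and was found in 0.49% of all windows and in those of HSPA8, HSP90AA1 and HSPD1. The sites below are all that were found in members, overlapping matches joined, written 5′ to 3′ on the strand of the gene, with the matched bases in capitals.
HSPA8, chr11:123062350-123062370, minus strand: gcttGAAAGTTCCAGAAcgct
HSPA8, chr11:123062175-123062195, minus strand: ccccTTCTGGAAGGTTCtaag
HSP90AA1, chr14:102087116-102087136, minus strand: gttcTTCCGGAAGGTTCggga
HSP90AA1, chr14:102087101-102087116, minus strand: aggcTTCTGGAAaaag
HSPD1, chr2:197500064-197500089, minus strand: cattTTCTGGAAAGTTCTGGAAccga
HSPA1A, chr6:31815433-31815448, plus strand: cctgGAATATTCccga
HSPA1B, chr6:31827629-31827644, plus strand: cctgGAATATTCccga
DNAJB1, chr19:14518463-14518478, minus strand: ggcgGAAGGTTCtgga
DNAJB1, chr19:14518433-14518448, minus strand: tctgGAAGCTTCcgcc
DNAJB1, chr19:14517925-14517940, minus strand: gccaGAAGCTTCtagc
HSPB1, chr7:76302487-76302502, plus strand: gagaGAAGGTTCcaga
The sites of HSPA1A and HSPA1B were identical in sequence, and over their whole windows the copies shared 277 of 301 aligned bases (92.0%). HSPE1 and HSPD1 lie head to head on opposite strands of chromosome 2, with the start of HSPE1 105 bases from 1 annotated start of HSPD1 and 539 bases from the other. The HSPD1 site above lies outside the window of HSPE1, and a motif outside a window was not counted. These matches are letters in a window and no binding was measured.

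The libraries differed in ways that bear on every member. The 4 induced libraries listed more genes at or above 1 FPKM (15736 to 20896) than the others did (13661 to 14688). Both S34F dox+ libraries were also the shallowest, with depths of 0.693 and 0.603 relative to the first parental library, as read from the steps among low FPKM values, against 0.865 to 1.27 elsewhere. The induced gene itself followed the labels, as U2AF1 was at 164 and 223 FPKM in S34F dox+, 278 and 299 FPKM in WT dox+ and 103 to 115 FPKM elsewhere. All 9 epithelial and lung adenocarcinoma markers searched were at or above 1 FPKM in every library, including NKX2-1 at 49.0 to 67.8 FPKM, which is the lineage the cell line is labelled with. Of the other markers, 2 of 6 for fibroblasts, 2 of 5 for leukocytes and 0 of 3 for endothelium had a mean of at least 1 FPKM. The summed fibroblast markers were 6.23 and 12.0 FPKM in S34F dox+, 9.29 and 13.4 FPKM in WT dox+ and 3.57 to 7.57 FPKM elsewhere, the leukocyte markers, mostly CD68, summed to 15.2 to 36.6 FPKM, and their part in the results was not tested. In bulk RNA, a change in the share of cells and a change in RNA per cell cannot be told apart.

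HSPA8, the HSP70 that cells make without stress, was by far the most abundant member, at 1523 to 2324 FPKM, between rank 24 and rank 56 among 20327 protein-coding genes. HSP90AA1 followed at 866 to 1581 FPKM, then HSPD1 at 303 to 480 FPKM and HSPE1 at 209 to 325 FPKM. This order of the first 2 members held in all 9 libraries. HSPB1 was 5th in 7 libraries without S34F induction, at 134 to 194 FPKM, whereas it was 3rd and 4th in the S34F dox+ libraries. BAG3 lay at 123 to 153 FPKM in 6th place throughout. DNAJB1 at 45.5 to 84.9 FPKM, HSPA1B at 48.5 to 78.2 FPKM and HSPA1A at 44.4 to 69.3 FPKM overlapped in range and changed places between libraries. HSPH1 was the lowest member in 8 libraries, at 25.2 to 59.4 FPKM, with DNAJB1 below it in WT dox- replicate 1. FPKM is scaled by transcript length, so these levels can be set side by side between genes, except where reads match several genes, as for HSPA1A and HSPA1B. The stress-inducible genes HSPA6, HSPB8 and CRYAB, which are no members, had means of 0.852, 0.307 and 0.928 FPKM and were not tested.

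**Figure D1:**
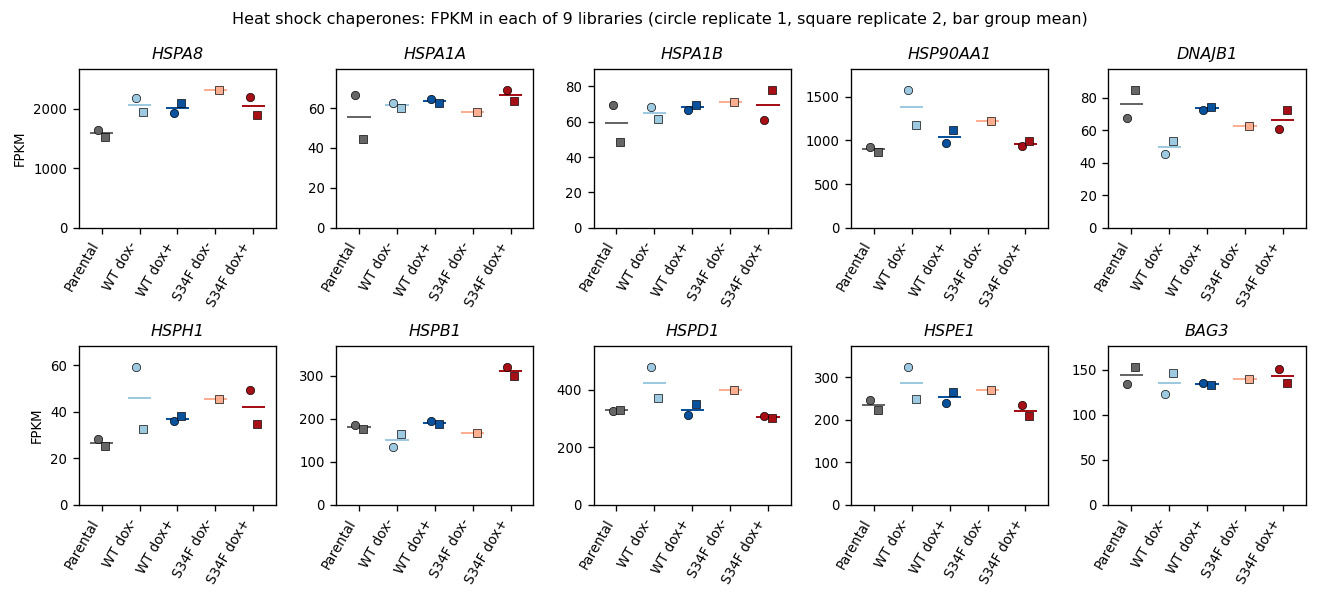
FPKM of each of the 10 members (y axis, linear from 0, its own scale in each panel) in the 5 groups (x axis), with a circle for replicate 1, a square for replicate 2 and a bar for the group mean. HSPB1 in S34F dox+, at 321 and 300 FPKM, lies above its other 7 libraries, and HSP90AA1, HSPD1, HSPE1 and HSPH1 have their highest value in WT dox- replicate 1.

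The members varied over the 9 libraries about as much as other genes did. The ratio of highest to lowest library had a median of 1.60 over the 10 members and of 1.59 over 9917 genes that averaged 5 FPKM or more and were above 0 in every library. HSPB1 had the widest range at 2.39-fold and HSPH1 the next at 2.35-fold, whereas BAG3 had the narrowest at 1.24-fold. A single library weighed on many of these ranges. WT dox- replicate 1 held the highest value of HSP90AA1, HSPH1, HSPD1 and HSPE1 and the lowest of DNAJB1, HSPB1 and BAG3. Parental replicate 2 held the lowest value of HSPA1A, HSPA1B, HSPA8, HSP90AA1 and HSPH1. No member had both libraries of the parental line (4.66% of all genes), of WT dox- (3.44%) or of WT dox+ (3.10%) above the remaining 7, or both WT dox+ libraries below them (3.03%).

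**Figure D2:**
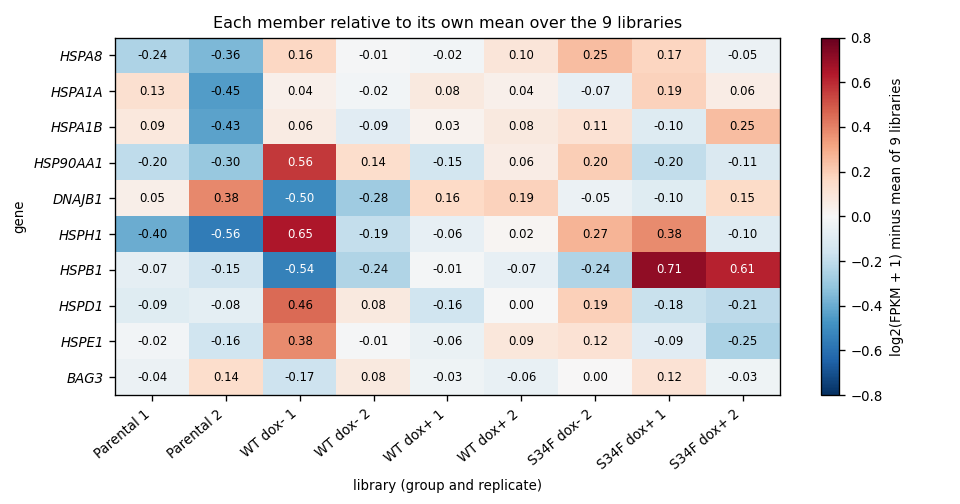
Each member (rows) in each library (columns) as log2(FPKM + 1) minus its own mean over the 9 libraries, red above and blue below the mean, with the value printed in each cell. HSPB1 stands at 0.71 and 0.61 in S34F dox+, and the column of WT dox- replicate 1 runs from HSPH1 at 0.65 and HSP90AA1 at 0.56 to HSPB1 at -0.54.

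S34F dox+ was compared with WT dox+, in which U2AF1 is induced as well but to another level. U2AF1 was at 164 and 223 FPKM in S34F dox+ and at 278 and 299 FPKM in WT dox+. Mutant, level of U2AF1 and clone therefore cannot be told apart in this comparison. No member passed the test (limma-trend on log2(FPKM + 1), 15179 genes, adjusted p under 0.05), where 0.0198% of all genes were higher and 0.0329% were lower. At an unadjusted p under 0.05, 1 member was higher (4.01% of all genes) and 0 were lower (2.77%). Groups did not overlap for 2 members that were higher in S34F dox+, HSPB1 and BAG3 (20.5% of all genes), and for 3 that were lower, DNAJB1, HSPD1 and HSPE1 (15.3%). The median log2 fold change of the members was 0.022, against 0.029 for all genes tested. With S34F dox+ replicate 1 left out 3 members were higher and 5 lower without overlap (43.9% and 31.1% of all genes), and with its replicate 2 left out 5 were higher and 5 lower (38.0% and 35.4%), since a single library separates more readily.

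HSPB1 stood out among the members. It was at 321 and 300 FPKM in S34F dox+, at 194 and 187 in WT dox+, at 166 in S34F dox-, at 134 and 166 in WT dox- and at 186 and 176 in the parental line. Both S34F dox+ libraries were above the other 7, which was so for 7.85% of all genes, and the ratio of the means of S34F dox+ and WT dox+ was 1.63. The log2 fold change of HSPB1 was 0.70 (SE 0.12, 95% confidence interval 0.42 to 0.98), and it did not pass adjustment over all genes (limma adjusted p = 0.297, range over the alternatives 0.124 to 1.00). Its sign was the same under FPKM, TPM (0.58), median-ratio scaling (0.63) and quantile normalization (0.72).

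The other 9 members were closer together in S34F dox+ and WT dox+. HSPA8 was at 2199 and 1896 FPKM in S34F dox+ and at 1928 and 2092 in WT dox+, so the groups overlapped, with a log2 fold change of 0.02 (95% interval -0.25 to 0.30) that turned negative with TPM (-0.09) and with median-ratio scaling (-0.04). HSP90AA1, the inducible cytosolic HSP90, was at 932 and 988 FPKM in S34F dox+ and at 966 and 1115 in WT dox+, which overlap (log2 fold change -0.11, interval -0.46 to 0.24). HSPE1 was at 235 and 209 FPKM in S34F dox+ and at 240 and 266 in WT dox+. Its groups did not overlap, and the log2 fold change was -0.19 (SE 0.15, limma adjusted p = 0.851). HSPD1 was at 308 and 303 FPKM against 313 and 349, the lowest 2 values of its 9 libraries, as for 4.42% of all genes (log2 fold change -0.11, SE 0.13, limma adjusted p = 0.916). DNAJB1 was at 60.6 and 72.3 FPKM against 72.6 and 74.1, which did not overlap by a margin far below the spread between the S34F dox+ replicates. The widest interval was that of HSPH1, -0.47 to 0.79 around 0.16, with 49.2 and 34.9 FPKM in S34F dox+ on both sides of 35.9 and 38.1 in WT dox+. BAG3 was at 151 and 135.56 FPKM in S34F dox+ and at 135.42 and 133 in WT dox+, apart by less than 1 FPKM, with a log2 fold change of 0.09 that was -0.03 with TPM.

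HSPA1A and HSPA1B, the stress-inducible HSP70 genes, encode nearly the same protein, and RSEM divides reads that match both, so their separate values are uncertain. The sum of both was 130 and 142 FPKM in S34F dox+, 131 and 132 in WT dox+, 129 in S34F dox-, 131 and 122 in WT dox- and 136 and 92.8 in the parental line. Every library but the second parental one lay in the range from 122 to 142 FPKM. In S34F dox+ against WT dox+ the log2 fold change of the sum was 0.04 (interval -0.35 to 0.44), and it was 0.06 in WT dox+ against WT dox-, 0.07 in S34F dox+ against S34F dox- and 0.17 in WT dox- against the parental line, with none past the test. HSPA8 outnumbered the sum by 12.1-fold to 18.0-fold, the lowest ratio being in the first parental library and the highest in S34F dox-.

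**Figure D3:**
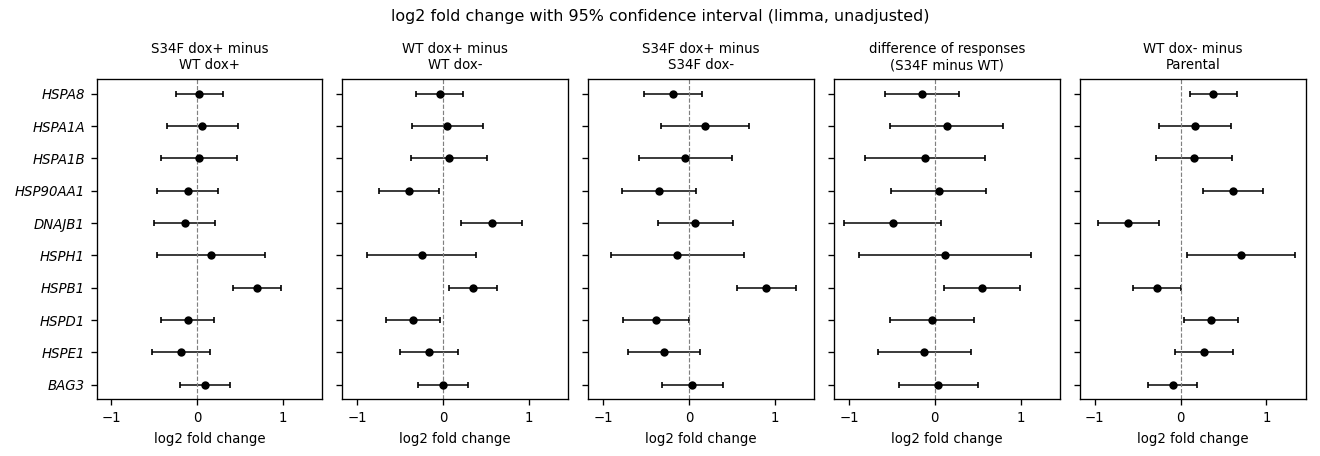
Log2 fold change of each member (points, x axis) with its 95% confidence interval from limma (bars, not adjusted for the number of genes) in the 4 comparisons of groups and in the difference of the responses to doxycycline. HSPB1 lies at 0.70, 0.35, 0.90 and 0.55 in the first 4 panels and at -0.28 in the last, and none of the points passed adjustment over all genes.

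WT dox+ was compared next with WT dox-. In this comparison, and in that of S34F dox+ with S34F dox-, doxycycline itself and the U2AF1 that it switches on cannot be told apart. No member passed the adjusted test, where 0.00659% of all genes passed in each direction. At an unadjusted p under 0.05, 2 members were higher (8.80% of all genes), DNAJB1 and HSPB1, and 2 were lower (5.59%), HSP90AA1 and HSPD1. Without overlap, 3 members were higher, with HSPA1A as the third (28.9% of all genes), and the same 2 were lower (20.8%). The median log2 fold change of the members was -0.021 and that of all genes 0.049. Leaving out a library moved these counts, to 5 higher and 3 lower without WT dox- replicate 1 (40.6% and 34.03% of all genes), 4 and 5 without its replicate 2 (44.7% and 32.7%), and 3 and 4 without WT dox+ replicate 2 (39.5% and 32.2%). Without WT dox- replicate 1 the median of the members was 0.064.

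DNAJB1, which hands substrates to HSP70, had the largest difference of these. It was at 72.6 and 74.1 FPKM in WT dox+ and at 45.5 and 53.2 in WT dox-, and the latter 2 were the lowest of the 9 libraries, which held for 4.81% of all genes. The log2 fold change was 0.57 (SE 0.15, limma adjusted p = 0.199, range over the alternatives 0.149 to 0.544), and 0.45 to 0.68 with a replicate left out. HSP90AA1 was at 966 and 1115 FPKM in WT dox+ and at 1581 and 1178 in WT dox- (log2 fold change -0.39, SE 0.15, limma adjusted p = 0.304). The groups were apart, but without WT dox- replicate 1 the log2 fold change of HSP90AA1 was -0.18. HSPD1 was at 313 and 349 FPKM against 480 and 370 (-0.35, SE 0.13, limma adjusted p = 0.306), and at -0.16 without that library. HSPB1 was at 194 and 187 FPKM against 134 and 166, with a log2 fold change of 0.35 (SE 0.12, limma adjusted p = 0.274) that was 0.20 without that library. HSPE1 and HSPH1 overlapped between the groups, and both log2 fold changes, -0.17 and -0.25, turned positive without WT dox- replicate 1 (0.026 and 0.17). BAG3 differed by -0.0017 and HSPA8 by -0.04 on the log2 scale, and both had the opposite sign under quantile normalization.

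In the S34F line, with 1 uninduced library whose spread is taken from the other groups, no member passed the adjusted test either, against 0.198% of all genes higher and 0.0856% lower. HSPB1 was higher at an unadjusted p under 0.05 (1 member, 10.6% of all genes) and HSPD1 was lower (1 member, 5.11%). Without overlap, HSPA1A and HSPB1 were higher (2 members, 42.9% of all genes) and HSPA8, HSP90AA1, HSPD1 and HSPE1 were lower (4 members, 28.7%). HSPB1, at 321 and 300 FPKM with doxycycline and 166 without, had a log2 fold change of 0.90 (SE 0.15, limma adjusted p = 0.0743, range 0.0394 to 0.604 over the alternatives). It passed when protein-coding genes alone were tested, which reduces the number of genes adjusted over, at a limma adjusted p = 0.0394. HSPD1 was at 308 and 303 FPKM with doxycycline and 398 without (-0.38, SE 0.16, limma adjusted p = 0.317), and HSP90AA1 at 932 and 988 against 1224 (-0.35, SE 0.18, limma adjusted p = 0.393). Both were below 0 under all 4 scalings. Median-ratio scaling moved the median of all genes from 0.087 to -0.155 in this comparison and that of the members from -0.088 to -0.36, and with it 1 member was higher and 8 were lower without overlap, as were 25.3% and 48.7% of all genes.

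The responses of both lines were then compared with each other. The difference of the responses, S34F line minus WT line, did not pass the adjusted test for any member, where 0.00659% of all genes were higher and 0.0198% lower, and at an unadjusted p under 0.05 the counts were 1 member higher (2.21% of all genes) and 0 lower (1.21%). That member was HSPB1, at 0.55 in log2 units (SE 0.19, interval 0.11 to 0.99, limma adjusted p = 1.00), and at 0.70 without WT dox- replicate 1. DNAJB1 had a difference of -0.49 (SE 0.24, interval -1.05 to 0.07). Its response was 0.57 in the WT line and 0.08 in the S34F line, where 60.6 and 72.3 FPKM with doxycycline lay on both sides of 62.8 without. The difference for HSP90AA1 was 0.04 (interval -0.51 to 0.60) and for HSPD1 -0.03 (interval -0.52 to 0.46), and these intervals are wide enough to hold the whole of either response. The comparisons of S34F dox+ with WT dox+, of each line with doxycycline, and of WT dox- with the parental line share libraries, so their values are not independent of each other.

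WT dox- was set against the parental line to see how the members stood in a transduced line before induction. No member passed the adjusted test (0.0395% of all genes were higher and 0.0593% lower), whereas at an unadjusted p under 0.05, 4 members were higher (5.79% of all genes), HSPA8, HSP90AA1, HSPH1 and HSPD1, and 1 was lower (6.54%), DNAJB1. Without overlap, 5 were higher, HSPE1 being the fifth (21.6% of all genes), and DNAJB1 and HSPB1 were lower (2 members, 22.4%). The median of the members was 0.22 and that of all genes 0.00. Without parental replicate 1 the counts were 7 higher and 3 lower (34.8% and 36.3% of all genes), and without parental replicate 2 they were 5 and 4 (35.5% and 35.7%). HSPA8 was at 2189 and 1946 FPKM in WT dox- and at 1651 and 1523 in the parental line (log2 fold change 0.38, SE 0.12, limma adjusted p = 0.280). HSP90AA1 was at 1581 and 1178 FPKM against 928 and 866 (0.61, SE 0.15, limma adjusted p = 0.200), and at 0.39 without WT dox- replicate 1. For HSPA8, HSP90AA1 and HSPH1 both parental libraries were below the other 7, which was the case for 5.30% of all genes. HSPH1, the exchange factor of the HSP110 family, was at 59.4 and 32.7 FPKM against 28.3 and 25.2, with a log2 fold change of 0.70 (SE 0.27, limma adjusted p = 0.359) that was 0.28 without that library. DNAJB1 was at 45.5 and 53.2 FPKM against 67.2 and 84.9 (-0.61, SE 0.15, limma adjusted p = 0.205). It was below the parental line, as HSPB1 was at -0.28 (SE 0.12, limma adjusted p = 0.410). Without WT dox- replicate 1, HSPB1 was at -0.13, DNAJB1 at -0.50, HSPD1 at 0.17 instead of 0.35, HSPE1 at 0.082 instead of 0.28 and the median of the members at 0.11. With the doxycycline status of the parental line uncertain, transduction and treatment cannot be told apart in these values.

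HSPD1 and HSPE1, the chamber and its lid, kept a nearly fixed ratio. HSPD1 over HSPE1 was 1.33 and 1.48 in the parental line, 1.48 and 1.49 in WT dox-, 1.30 and 1.31 in WT dox+, 1.47 in S34F dox- and 1.31 and 1.44 in S34F dox+. HSP90AA1 over its constitutive paralog HSP90AB1 ran from 0.874 in the first parental library to 1.13 in WT dox- replicate 1. In contrast, HSP90AA1 over HSPB1 ran from 2.91 and 3.29 in S34F dox+ to 11.8 in WT dox- replicate 1, with 4.93 to 7.38 in the remaining 6 libraries. Over the 9 libraries, which share groups and normalization, Pearson's r of log2(FPKM + 1) was 0.93 between HSP90AA1 and HSPD1, 0.92 between HSPD1 and HSPE1 and 0.90 between HSPA8 and HSPH1. It was -0.81 between HSP90AA1 and DNAJB1 and -0.78 between HSPB1 and HSPD1. These are descriptions, in which WT dox- replicate 1 is the extreme point for most of the genes.

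Among 10024 genes that averaged 5 FPKM or more, the non-members most like each member were also sought by Pearson's r over the same 9 libraries. HSPE1 was closest to DNAJA1 (0.97) and DNAJA2 (0.96), a pair of cytosolic J-domain proteins that belong to the HSP70 system. HSP90AA1 and HSPD1 shared ODC1, the first enzyme of polyamine synthesis, at 0.97 and 0.98, and HSPD1 was closest to EBNA1BP2 (0.98), a nucleolar protein of ribosome assembly. HSPB1 was closest to TUBG2 (0.98), a gamma tubulin, HSPA8 to PAPD5 (0.96) and HSPH1 to ALKBH8 (0.94). DNAJB1 was closest to HDHD2 (0.95), HSPA1A to PSME4 (0.97), a proteasome activator, HSPA1B to LL22NC03-80A10.6 (0.90) and BAG3 to PRDX3 (0.94), a mitochondrial peroxidase. These are the highest of many values over 9 points that share groups and normalization, and no test is given.

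The wider chaperone system was described by 6 lists of 77 other genes, of which 74 were tested. None passed the adjusted test in any of the 5 comparisons (limma). In WT dox+ against WT dox-, 37 of the 74 were lower without overlap and 3 were higher, where 20.8% and 28.9% of all genes were. At an unadjusted p under 0.05 the split was 0 higher and 19 lower (8.80% and 5.59% of all genes). Their median log2 fold change was -0.19, while that of all genes was 0.049. Without WT dox- replicate 1, 42 were lower and 15 higher without overlap, with 34.03% and 40.6% of all genes, the median was -0.10, and 8 were lower by unadjusted p. Without WT dox+ replicate 1 that last count was 5. In S34F dox+ against S34F dox-, 57 were lower and 10 higher without overlap (28.7% and 42.9% of all genes), and the median was -0.28. By unadjusted p, 20 were lower and no gene was higher there (5.11% and 10.6% of all genes). In WT dox- against the parental line, 33 were higher and 6 lower without overlap (21.6% and 22.4% of all genes), and by an unadjusted p under 0.05 the split was 20 higher and 0 lower (5.79% and 6.54%), with a median of 0.15. The 20 became 9 without WT dox- replicate 1 and 12 without either parental replicate. Leaving out parental replicate 1 or 2, or WT dox- replicate 1 or 2, gave 39, 46, 37 and 50 higher without overlap (34.8%, 35.5%, 35.1% and 36.2% of all genes) and 12, 14, 19 and 9 lower (36.3%, 35.7%, 33.7% and 36.9%). In S34F dox+ against WT dox+ the split was 12 higher and 16 lower without overlap (20.5% and 15.3% of all genes), with a median of -0.04. At an unadjusted p under 0.05 it was 1 higher and 4 lower (4.01% and 2.77% of all genes). Leaving out S34F dox+ replicate 1 or 2, or WT dox+ replicate 1 or 2, gave 24, 23, 16 and 26 higher without overlap (43.9%, 38.0%, 32.1% and 34.9% of all genes) and 33, 27, 33 and 22 lower (31.1%, 35.4%, 29.3% and 24.2%). The median in the difference of responses was -0.05, with no gene of the lists at an unadjusted p under 0.05 (2.21% of all genes were higher and 1.21% lower). Among genes averaging 5 FPKM or more, 72 of the lists were tested. In WT dox+ against WT dox-, 37 of these were lower and 2 higher without overlap, beside 27.2% and 24.6% of all such genes (median -0.0093). In S34F dox+ against S34F dox-, 57 were lower and 9 higher, beside 37.4% and 35.0% of all such genes (median -0.014).

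The lists of this system are given next, with no test between them. TRiC and prefoldin, which fold actin and tubulin, had 8 of 14 genes lower and 1 higher without overlap in WT dox+ against WT dox-. The shares of all genes were 20.8% and 28.9%, and the median of the list was -0.26. In S34F dox+ against S34F dox-, 13 were lower and 0 higher without overlap (28.7% and 42.9% of all genes), with a median of -0.42. Without WT dox- replicate 1, the WT medians were -0.12 for TRiC and prefoldin, -0.13 for the mitochondrial list, -0.09 for the HSP90 cochaperones, -0.02 for the HSP70 system, -0.13 for the other heat-inducible genes and -0.20 for HSF1 and its regulators. PFDN2 was at 153 and 177 FPKM in WT dox+ and at 276 and 235 in WT dox- (log2 fold change -0.63, SE 0.12, limma adjusted p = 0.141), and CCT3 at 462 and 469 against 722 and 608 (-0.51, SE 0.12, limma adjusted p = 0.176). CCT6A, another TRiC subunit, was at 165 and 150 FPKM in S34F dox+ and at 215 and 242 in WT dox+ (-0.53, limma adjusted p = 0.583), and CCT7 differed by -0.24. Of the 13 mitochondrial chaperones and proteases, 9 and 11 were lower and 0 and 1 higher without overlap after induction in the WT and S34F lines, against the same shares of all genes, with medians of -0.26 and -0.38, and CLPP, a matrix protease, was at 53.6 and 58.2 FPKM in WT dox+ and at 76.9 and 78.9 in WT dox- (-0.47, limma adjusted p = 0.163). CLPB, a disaggregase, differed by -0.44 in WT dox+ against WT dox-, and DNAJA3 and GRPEL1, which serve mitochondrial HSP70, by -0.47 and -0.44 in S34F dox+ against WT dox+.

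Of the 9 HSP90 cochaperones, 3 were lower in WT dox+ without overlap (20.8% of all genes; median -0.24), and 8 were lower and 1 higher in S34F dox+ against S34F dox- (28.7% and 42.9%; median -0.28). NUDC was at 78.6 and 94.7 FPKM in WT dox+ and at 131 and 116 in WT dox- (-0.51, limma adjusted p = 0.200), while TTC4 overlapped (-0.29). UNC45A, a myosin chaperone, and FKBP5, a peptidyl-prolyl isomerase, differed by -0.40 and -0.31 in S34F dox+ against WT dox+ (limma adjusted p = 0.656 and 0.705). The HSP70 system of 18 genes had medians of -0.12 and -0.11 after induction in the WT and S34F lines, with HSPBP1, an exchange factor, at -0.42 (limma adjusted p = 0.199) and DNAJB2 at 0.38 in WT dox+ against WT dox-, and BAG5 and BAG1 at -0.24 and -0.23 in S34F dox+ against WT dox+. The 16 tested heat-inducible genes outside the members had a median of -0.24 in WT dox+ against WT dox-. In WT dox- against the parental line their median was 0.31, and it was 0.17 without WT dox- replicate 1. In the latter comparison 8 of them were higher at an unadjusted p under 0.05 (5.79% of all genes). IER5, which acts on HSF1, was at 18.4 and 19.7 FPKM in WT dox+ and at 24.6 and 29.4 in WT dox- (-0.48, limma adjusted p = 0.253). FKBP4 differed by -0.45 there, and DEDD2 by 0.24 and HSPA4 by -0.20 in S34F dox+ against WT dox+. HSF1 and its regulators, 4 genes, had a median of -0.15 in WT dox+ against WT dox-. There HSF4 and HSBP1 differed by -0.21 and -0.19, while HSF4 and HSF2 differed by -0.20 and -0.06 in S34F dox+ against WT dox+.

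**Figure D4:**
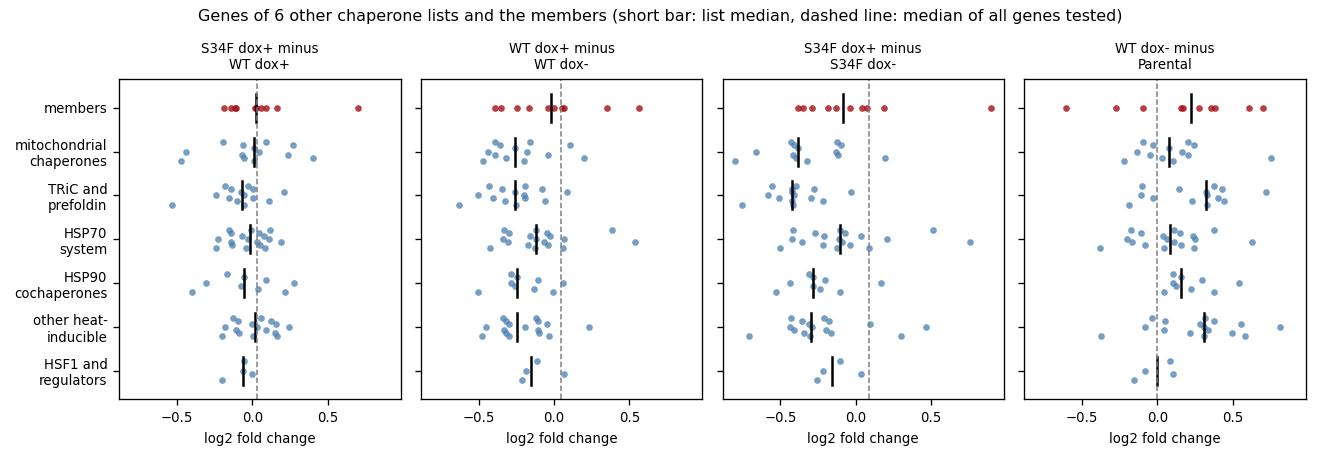
Log2 fold change (x axis) of the genes of 6 other chaperone lists (blue points, rows) and of the 10 members (red points) in 4 comparisons, with a short bar at the median of each list and a dashed line at the median of all genes tested. In WT dox+ against WT dox- and S34F dox+ against S34F dox- the medians of the other lists lie between -0.42 and -0.11, to the left of the dashed lines at 0.049 and 0.087, whereas the members have medians of -0.021 and -0.088 and spread to both sides.

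The splicing of the members was examined in the MISO results that the authors deposited for S34F against wild-type cells, which give for each event a PSI (percent spliced in, as a fraction) in each condition and no replicates. The columns name only a first and a second condition, which were read as S34F and wild-type from the order in the name of the tables, and if that order were reversed, every direction of PSI and of reads given here would turn over. These tables hold 47 events with a member name and at least 10 reads, of which 41 lie on the strand of the member. A difference in PSI of at least 0.10 was seen in 5 of the 47 and in 3 of the 41, where 33.0% of 87763 events had one, and with the Bayes factor of the authors at 5 or more in 0 of 47, where 1.18% of events did. No test can be made without replicates. All 3 events on the strand of the member were NAGNAG events, in which acceptor sites 3 bases apart compete, and 7 of the members' events were of this type (39.3% of 15950 NAGNAG events had such a difference).

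The NAGNAG event of HSPA8 (GRCh37, chr11:122928536-122929475, minus strand) had a PSI of 0.40 in S34F cells and of 0.28 in wild-type cells, over 20949 and 30197 reads counted for the event. How many of these reads tell its acceptor sites apart was not examined. The difference did not pass with the Bayes factor of the authors at 5 or more. The NAGNAG event of HSPA1A (chr6:31783845-31783888) had a PSI of 0.43 and 0.54, over 602 and 893 reads. That of HSPA1B (chr6:31796039-31796082) had 0.54 and 0.41, over 107 and 135 reads, opposite in sign in these near-identical copies. Each of these 2 events spans only the few bases given, and whether an intron is spliced there was not examined. Their differences are therefore not read here as shifts between acceptor sites. Among the remaining members, the largest differences were -0.03 in a NAGNAG event of HSP90AA1 (0.66 and 0.69), 0.03 in one of BAG3 (0.52 and 0.49) and 0.04 in size in 2 skipped exons of HSPH1 (0.93 and 0.97, and 0.15 and 0.11). The 2 events of HSPB1 differed by at most 0.01, with the PSI of its retained intron event at 0.98 in both conditions. The study describes PSI by exon inclusion, so whether 0.98 counts the form that keeps the intron is not given. HSPD1 had 7 events on its own strand, all within 0.01 of 0 difference, and HSPE1 had 3 with a difference of 0.00. Both events named for DNAJB1 lie on the opposite strand and also carry the name of TECR, and 1 of them had a PSI of 0.22 and 0.33. A skipped exon listed under HSPD1 with 0.35 and 0.20 lies on the opposite strand and also carries the names HSPE1-MOB4 and MOB4.

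**Figure D5:**
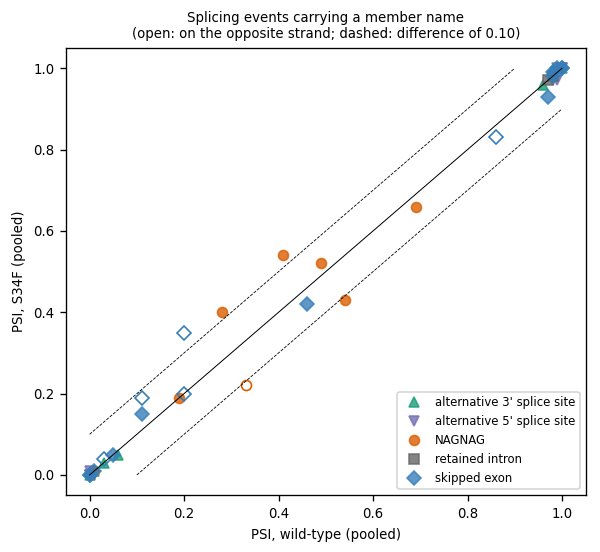
PSI in S34F cells (y axis) against PSI in wild-type cells (x axis) for the 47 events with a member name, by event type, with open symbols for events on the strand opposite to the member and dashed lines at a difference of 0.10. Most events lie near 0 or 1 on the diagonal, and the 3 filled symbols beyond the dashed lines are NAGNAG events of HSPA8, HSPA1A and HSPA1B. Those of HSPA1A and HSPA1B are not read as shifts between acceptor sites.

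The reads that MISO counted for each event give a second view of HSPB1, from the same kind of cells. The number of reads in S34F over that in wild-type cells had a median of 0.688 over 79960 events that had 10 reads or more in both conditions, with 5th and 95th percentiles of 0.503 and 1.09. The median over the events of a member was 1.06 for the 2 events of HSPB1, above 94.4% of events, 0.793 for the event of HSPA1B, above 78.6%, and 0.674 for that of HSPA1A. It was 0.692 for HSPA8, 0.626 for HSP90AA1, 0.653 for HSPD1, 0.599 for HSPE1, 0.723 for HSPH1 and 0.730 for BAG3. Among the events of HSPD1 the ratio reached 1.35, in an event with 23 and 17 reads. Whether these reads come from the libraries of the expression table is not given in the sources used here, so they are no independent replicate.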

How the data were processed

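RNA-Seq of total RNA from HCC78 cells was used. Per the labels, the authors deposited FPKM and TPM from RSEM, and the submitters' processing notes name STAR 2.3.0 and RSEM 1.2.29 with GRCh37/hg19 as build. FPKM and TPM values per gene were deposited without counts, so the number of reads is unknown. The depths given above are relative estimates from low FPKM values, and no counting interval is given. For splicing, the authors deposited PSI, a fraction from MISO, pooled per condition, with read counts per event and a Bayes factor, a score that MISO gives for a difference. Their column of PSI differences was not used, and the Bayes factor served only as an alternative threshold.

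The 10 members and the other lists were chosen with earlier results of these data known. Columns were mapped by name. Log2(FPKM + 1) of the 15179 genes that averaged 1 FPKM or more was fitted with limma 3.58.1 (trend) in R 4.3.3, with 5 groups in 1 fit, no covariates, two-sided tests and Benjamini-Hochberg adjustment over all genes. The fit was tested on simulated data for S34F dox+ against WT dox+. Of 200 changed genes it recovered 85 at a 2-fold change and 190 at a 4-fold change, with 2 and 6 false calls. A 2-fold change can therefore go uncalled. The genes named are all members, and from each other list the 2 with the largest size of log2 fold change, among those averaging 5 FPKM or more, in each of WT dox+ against WT dox- and S34F dox+ against WT dox+. For the most similar genes, the closest of 3 are given for each member and some of the rest. Alternatives covered pseudocount, minimum FPKM, scaling, TPM, gene type, groups in the fit, trend, a replicate block, replicates left out and summed HSPA1 copies. Promoter sequences are from RefSeq (GRCh38.p14). The binding data of the study were not used here.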

Additional observations from a re-analysis of the deposited data

How the results depend on the processing

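No member and no gene of the other lists passed the adjusted test under any alternative, except HSPB1 in S34F dox+ against S34F dox- with protein-coding genes alone (1 member). HSPB1 kept its sign in every comparison and alternative. The cause of the changes of sign given here was not tested. The replicate numbers did not pair the libraries (correlations of deviations between -0.076 and 0.037), and a replicate block changed no call, although HSPH1 in the difference of responses became -0.060. Of the splicing events of the members, 0 remained at a difference of 0.20 and 0 with the Bayes factor. With no counts, depth is known only as a relative estimate from low FPKM values, and 2 libraries a group limit precision.

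With TPM, S34F dox+ against WT dox+ had 1 member higher and 5 lower and 3 genes of the other lists higher and 32 lower without overlap (10.7% and 27.9% of all genes), with HSPA1A at -0.056, HSPA1B at -0.096, HSPA8 at -0.094 and BAG3 at -0.027. In S34F dox+ against S34F dox-, DNAJB1 was -0.046 and BAG3 -0.084, and BAG3 was 0.027 in WT dox+ against WT dox-. In WT dox- against the parental line, 1 member and 2 other genes were lower (15.4% of all genes) and BAG3 was 0.0073. In the difference of responses the other lists had a median of -0.20, HSPA1A was -0.013, HSP90AA1 -0.11, HSPH1 -0.034 and BAG3 -0.11.

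With median-ratio scaling, S34F dox+ against S34F dox- had 1 member higher and 8 lower (25.3% and 48.7% of all genes; median -0.36) and 2 other genes higher (median -0.55), with HSPA1A at -0.083, DNAJB1 at -0.20 and BAG3 at -0.24. In S34F dox+ against WT dox+, 1 member and 4 other genes were higher (14.0%), with HSPA1A at -0.0062, HSPA1B at -0.047 and HSPA8 at -0.043. In WT dox+ against WT dox-, 4 members were lower (31.6%), with HSPA1A at -0.066 and HSPA1B at -0.051. In the difference of responses the other lists had a median of -0.20, HSPA1A was -0.017, HSP90AA1 -0.11, HSPH1 -0.039 and BAG3 -0.12. Quantile normalization gave 0 members lower and 5 other genes higher (26.2% and 21.5% of all genes) in WT dox+ against WT dox-, with HSPA8 at 0.074 and BAG3 at 0.064, and HSPA1B at 0.024 in S34F dox+ against S34F dox-.

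With each replicate left out in turn, S34F dox+ against WT dox+ had 2 to 5 members higher and 3 to 5 lower without overlap. Of the other genes 16 to 26 were higher and 22 to 33 lower. The shares of all genes were 32.1% to 43.9% higher and 24.2% to 35.4% lower. HSPA1A lay between -0.0036 and 0.12, HSPA8 between -0.083 and 0.13, HSPH1 between -0.082 and 0.40 and HSPA1B between -0.16 and 0.20. WT dox+ against WT dox- had 3 to 5 members higher and 2 to 5 lower and 6 to 15 other genes higher and 41 to 59 lower. Here the shares of all genes were 39.5% to 44.7% higher and 29.7% to 34.03% lower. HSPA8 lay between -0.12 and 0.045, BAG3 between -0.12 and 0.12, HSPH1 between -0.67 and 0.17, HSPE1 between -0.36 and 0.026 and HSPA1B between -0.0091 and 0.14. S34F dox+ against S34F dox- had 4 members higher each time (57.8% and 55.6% of all genes), where 1 library against 1 separates nearly every gene. HSPA1B lay between -0.22 and 0.14, BAG3 between -0.036 and 0.11, DNAJB1 between -0.049 and 0.20 and HSPH1 between -0.38 and 0.11. WT dox- against the parental line had 2 to 4 members lower and 37 to 50 other genes higher and 9 to 19 lower. There 34.8% to 36.2% of all genes were higher and 33.7% to 36.9% lower. HSPA1A lay between -0.12 and 0.46, HSPA1B between -0.099 and 0.42 and BAG3 between -0.22 and 0.028. In the difference of responses HSPA1B lay between -0.28 and 0.068, HSPH1 between -0.30 and 0.53, BAG3 between -0.082 and 0.16, HSP90AA1 between -0.17 and 0.26, HSPD1 between -0.22 and 0.16, HSPE1 between -0.31 and 0.073 and the median of the members between -0.20 and 0.11.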
